A study of Mus musculus with 8 samples.

Results

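The 49 genes described here are interferon-stimulated genes (ISGs), genes that cells transcribe in response to interferon, other than those of the Ifi200 cluster. They were chosen by name: the Ensembl identifiers of the 8 count tables were matched to the gene symbols of the GENCODE M21 annotation, and the listed ISGs were taken. The rule used no measured value, but the list was drawn up with earlier results of these data known. All 49 were found among the 53465 genes of the tables, and all 49 passed the filter on low counts that left 17291 genes for testing. The comparison asked whether untreated thymocytes of the 2 mouse strains differ in the level of these genes, which is often called interferon tone.

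Type I interferons bind the receptor made of Ifnar1 and Ifnar2, whose kinases Jak1 and Tyk2 start a signal that reaches the nucleus through Stat2 and Irf9. These act at the interferon-stimulated response element (ISRE), whereas interferon gamma signals to the gamma-activated site (GAS). Many ISGs are also held at a basal level without infection by low constitutive interferon signalling and by interferon regulatory factors, and the thymus is known as an organ with such constitutive interferon.

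RNA was taken from live CD4+ CD8+ (double-positive) thymocytes sorted by flow cytometry. At this stage developing T cells finish rearranging their receptor and await selection. One group of libraries came from C57BL/6J, the reference inbred strain, and the other from NOD/ShiLtJ (NOD), an inbred strain that develops autoimmune diabetes. No treatment, allele, age or sex is named in the labels, and the series concerns genetic variation in type 1 diabetes. Each strain has 4 libraries, whose titles carry B and T numbers of unstated meaning. The libraries of a strain that share a B number were summed, which gave 2 samples per strain, and since nothing says that B numbers are separate animals, the p-values cover a spread between samples that could be technical alone. Library values are listed throughout as sample 1 and then sample 2, with T number 1 before T number 2 in each.

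The libraries held 8.527 to 15.702 M reads in genes in C57BL/6J and 23.533 to 30.371 M in NOD, so that NOD values rest on more reads. Levels are counts per M reads in genes after TMM scaling (CPM), and a level per length is CPM per kb of annotated exon. A difference is given as log2 of NOD over C57BL/6J with its standard error (SE) from edgeR, and a bare value in parentheses after a gene symbol is this log2 difference. A gene was called at an adjusted p under 0.05 in the quasi-likelihood test of edgeR, with Benjamini-Hochberg adjustment over all tested genes. The marker genes of the sorted stage, among them Rag1, Cd4, Cd8a and Dntt, summed to 22900 to 26900 CPM per C57BL/6J library and 18300 to 21100 CPM per NOD library. The largest part of that sum was Rag1, which was lower in NOD without passing the test (-0.61, edgeR adjusted p = 0.217). Of the 13 markers 8 had positive differences, among them Cd4 (0.05) and Cd8a (0.09), and 5 negative, with a median of 0.05. The negative ones were Cd8b1 (-0.68), Rag1, Dntt (-0.52), Rag2 (-0.33) and Tcf7 (-0.33). In these 5 the strains did not overlap, as in the positive Ptcra (0.79). By edgeR 0 were called (4 at an unadjusted p under 0.05). The DESeq2 Wald test called Cd8b1 lower, and limma-voom on the 8 libraries called Cd8b1 and Rag1 lower and Ptcra higher. Without the filter edgeR called Cd8b1, Dntt and Rag1 lower and Ptcra higher.

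Of the 49 ISGs, 1 changed between the strains. Igtp, a regulatory interferon-inducible GTPase that sits on the cell's own membranes and keeps effector GTPases inactive there, was lower in NOD. None was called higher. These counts are 2.04% of the members, beside 3.68% of all tested genes called in either direction (1.91% higher and 1.78% lower). The median log2 difference of the members was 0.02, with 25 positive and 24 negative, and that of all tested genes was also 0.02. The summed level of the 49 genes was 1670 to 1810 CPM in the C57BL/6J libraries and 1610 to 1780 CPM in the NOD libraries, so the strains overlapped. At an unadjusted p under 0.05, 5 members were higher and 5 were lower, together 20.4% of the members beside 13.1% of all tested genes. The count called higher was 0 with the DESeq2 Wald test as well, and 1 (Samd9l) when the 8 libraries entered limma-voom singly.

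**Figure D1:**
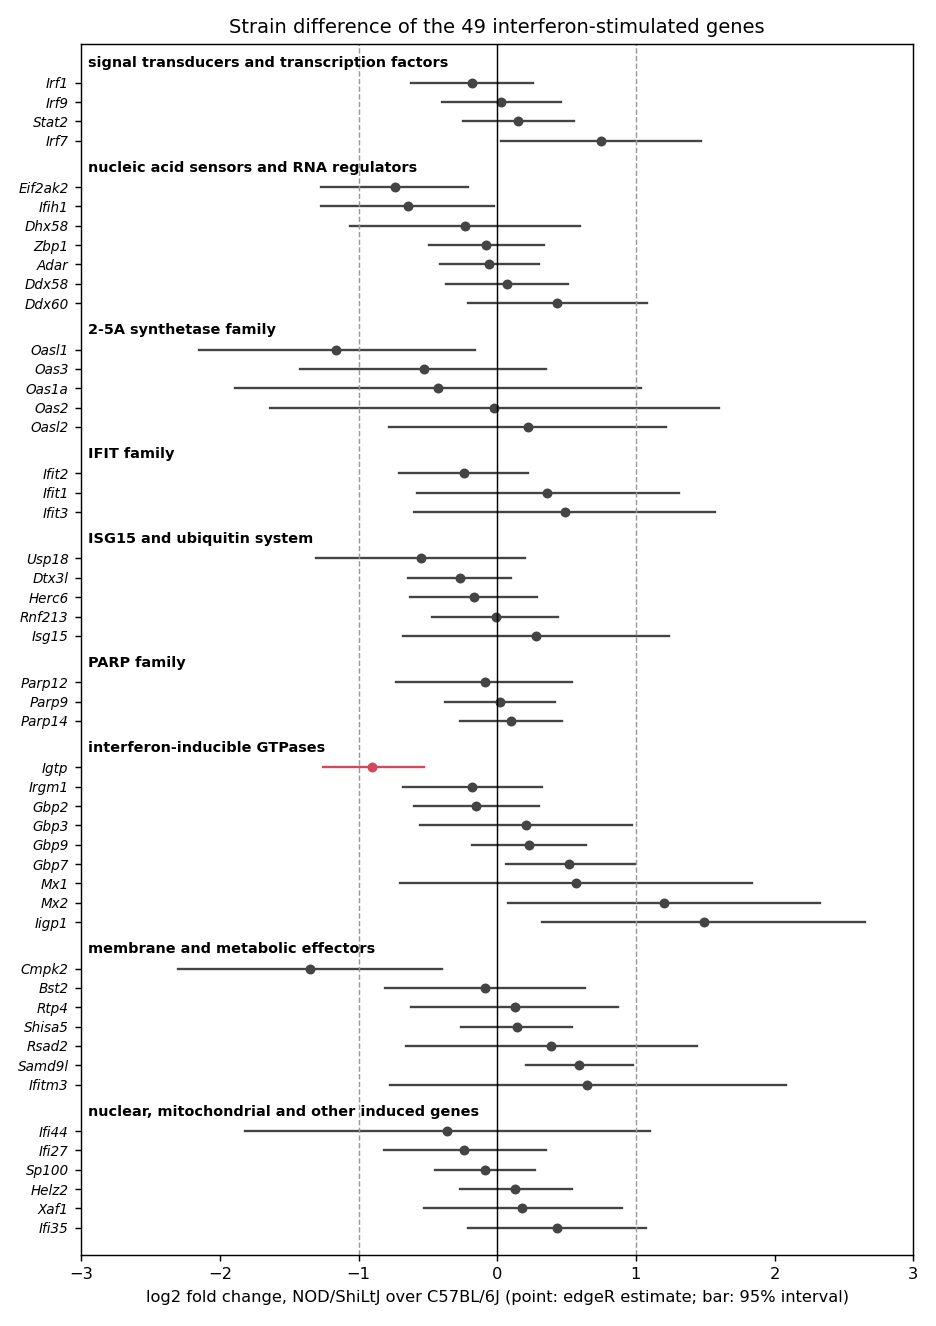
Log2 fold change of NOD over C57BL/6J (x axis) for each of the 49 members (rows, grouped by role), with the edgeR estimate as a point and its 95% interval as a bar; dashed lines mark a difference of 1 on the log2 scale. Igtp, in red at -0.90, is the member that was called, and the others lie on both sides of 0 with a median over all 49 of 0.02.

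How closely equality can be stated depended on the level. The 95% interval of the difference stayed within 1 on the log2 scale, in both directions, for 26 of the 49 members (53.1%), beside 46.0% of all tested genes. Among the 33 members at 5 CPM or more this held for 25 (75.8%), beside 76.5% of all tested genes at that level. Among the 16 members under 5 CPM it held for 1. For nearly all of the low members the interval reached beyond a 2-fold difference, so equality cannot be stated for them at this depth.

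Igtp lies on the plus strand at chr11:58199556-58207591 (GRCm38). Its levels were 97.3, 82.1, 82.7 and 83.1 CPM in the C57BL/6J libraries and 49.6, 42.6, 40.7 and 52.0 CPM in the NOD libraries. Every NOD library was below every C57BL/6J library. The mean fell from 86.0 ± 4.69 CPM (SD, n = 2) to 46.2 ± 0.391 CPM (SD, n = 2), a log2 difference of -0.90 (SE 0.16, 95% interval -1.26 to -0.53, edgeR adjusted p = 0.0171). Per length, Igtp went from the highest level of all 49 members in C57BL/6J, 42.6 CPM per kb, to 22.9 CPM per kb in NOD, below Sp100, Dtx3l and Samd9l. The call was lost without C57BL/6J sample 1 (-0.84, edgeR adjusted p = 0.169), without C57BL/6J sample 2 (-0.96, edgeR adjusted p = 0.0749) and with the libraries of T number 2 alone (-0.79, edgeR adjusted p = 0.101). With every summed sample thinned to the total of the shallowest one, the difference was -0.90 (edgeR adjusted p = 0.0186).

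The next gene on the same strand, Irgm2 (chr11:58199618-58222782), is a regulatory GTPase of the same family and is not one of the 49. Its annotated span overlaps Igtp, with 162 shared exon bases on the same strand, 8.0% of the exons of Igtp, so reads there cannot be assigned to one gene. Irgm2 measured 23.1, 21.9, 23.1 and 19.2 CPM in C57BL/6J against 14.8, 15.4, 11.4 and 10.6 CPM in NOD. Its strains did not overlap either, but the difference of -0.75 (SE 0.25) did not pass (edgeR adjusted p = 0.180), while limma-voom on the 8 libraries called it lower (-0.80, adjusted p = 0.0344). No other tested gene within 100 kb of Igtp was called: Gemin5 measured -0.36, Gm12250 -0.33, Mrpl22 -0.11, Cnot8 0.36 and Zfp692 0.68 on the log2 scale. The largest difference among these neighbours was that of Gm12246, annotated as an antisense gene with 261 reads in all libraries, at 2.48 (SE 0.72, edgeR adjusted p = 0.126), which was called by the DESeq2 Wald test (adjusted p = 0.0266) and by edgeR without the filter on low counts (adjusted p = 0.000695), as well as by edgeR with 1 sample omitted, be it C57BL/6J sample 2 (0.0290), NOD sample 1 (0.0306) or NOD sample 2 (0.00137).

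The promoters of this gene pair are shown because both genes had lower NOD values and carry both interferon elements side by side. The promoters of Irgm1, a family member with close levels in the strains, and of Isg15 are shown beside them. Each stretch runs 5′ to 3′ on the gene's strand from 100 bases before to 20 bases after the annotated start (RefSeq, GRCm38.p6), and capitals mark the ISRE core GAAANNGAAA and the GAS core TTCNNNGAA, both searched on both strands.
Igtp, chr11:58199456-58199575, plus strand: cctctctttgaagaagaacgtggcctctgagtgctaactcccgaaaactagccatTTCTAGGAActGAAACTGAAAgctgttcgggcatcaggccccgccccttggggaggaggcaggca
Irgm2, chr11:58214877-58214996, plus strand: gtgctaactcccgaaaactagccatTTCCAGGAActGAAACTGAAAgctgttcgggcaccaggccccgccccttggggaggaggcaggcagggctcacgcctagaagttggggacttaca
Irgm1, chr11:48871401-48871520, minus strand: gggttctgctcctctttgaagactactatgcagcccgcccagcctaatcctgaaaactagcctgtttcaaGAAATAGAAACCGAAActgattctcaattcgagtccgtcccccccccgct
Isg15, chr4:156200799-156200918, minus strand: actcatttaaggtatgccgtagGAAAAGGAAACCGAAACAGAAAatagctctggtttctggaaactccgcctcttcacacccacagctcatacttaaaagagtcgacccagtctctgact

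In Igtp the GAS core begins 45 bases and the ISRE core 34 bases before the start; in Irgm2 they begin 75 and 64 bases before it. The spacing between the cores was 11 bases in both, and 20 of the 21 bases of the joint block were identical. Isg15 holds 3 overlapping ISRE matches and Irgm1 holds 2, and neither printed stretch holds the GAS core. These are the sequences of the reference genome, a C57BL/6J genome, and the NOD sequence was not used here.

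Of the 49 members, 37 had a promoter in the RefSeq table, taken from 250 bases before to 50 bases after each annotated start. An ISRE core was found for 19 of these 37 (51.4%), beside 3.99% of all 27025 genes in the table. A GAS core was found for 11 (29.7%), beside 9.55% of all genes. Counted over promoters of equal length, 39.6% of the 48 member promoters and 3.44% of all 32851 held the ISRE core, and 22.9% against 8.30% held the GAS core. The 2 cores overlap each other in promoters of 3 members, Bst2, Ifitm3 and Shisa5. The median log2 difference between strains was 0.14 over the 19 members with the ISRE core and -0.07 over the 18 without it. The members with the core ranged from -0.90 (Igtp) to 0.65 (Ifitm3) and those without it from -1.35 (Cmpk2) to 0.75 (Irf7). The median was -0.09 over the 11 members with the GAS core and -0.09 over the 7 with both cores. These 7 also ranged from -0.90 (Igtp) to 0.65 (Ifitm3), with Gbp7 at 0.52 and Eif2ak2 at -0.74.

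**Figure D2:**
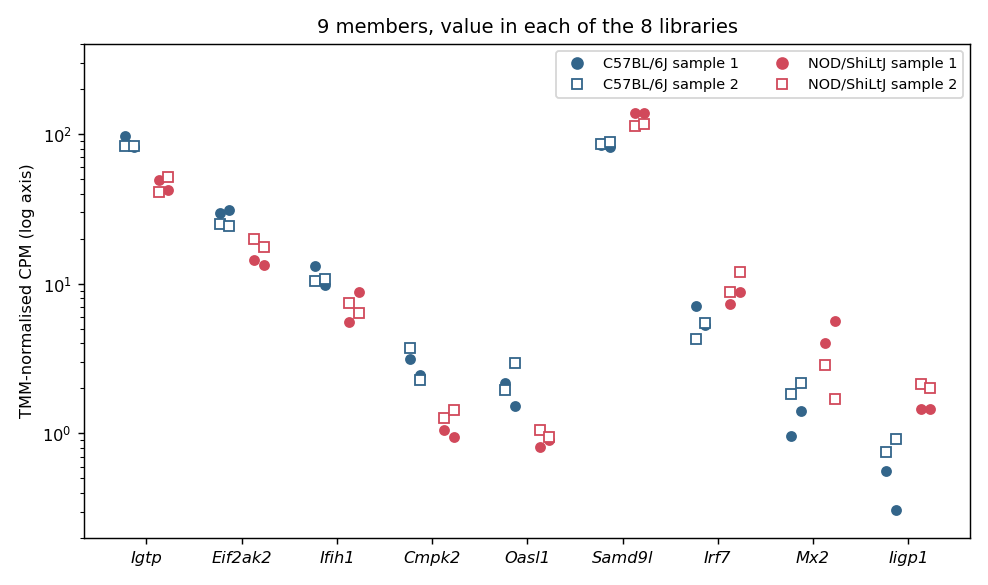
Level in CPM (y axis, log scale) of 9 members (x axis) in each of the 8 libraries, with filled circles for sample 1 and open squares for sample 2 of each strain. The strains do not overlap for any of them except Mx2, whose lowest NOD library, at 1.70 CPM, lies within the C57BL/6J values.

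The strains did not overlap in the 8 libraries for 12 of the 49 members (24.5%), beside 17.0% of all tested genes. These were Samd9l, Irf7, Iigp1, Gbp9 and Ifi35 with higher NOD values and Igtp, Eif2ak2, Ifih1, Cmpk2, Oasl1, Usp18 and Dtx3l with lower NOD values. Apart from Igtp none of these passed the test, and their values are given below with their roles.

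Among the signal transducers and transcription factors, Stat2 and Irf9 had close values. Stat2 was 52.8 ± 2.92 CPM (SD, n = 2) in C57BL/6J and 58.6 ± 7.04 CPM (SD, n = 2) in NOD, with a 95% interval of the log2 difference from -0.25 to 0.55. Irf9 was 28.7 ± 0.440 and 29.3 ± 2.11 CPM (SD, n = 2 each), with an interval from -0.40 to 0.46. Both intervals lie within 1 on the log2 scale, as does that of Irf1, an activator induced by interferon gamma, at -0.62 to 0.26. Irf7, the factor that amplifies interferon production, measured 7.12, 5.29, 4.28 and 5.48 CPM in the C57BL/6J libraries and 7.33, 8.80, 8.83 and 11.9 CPM in the NOD libraries. The strains were separated by a narrow gap, and the log2 difference of 0.75 (SE 0.32) did not pass (edgeR adjusted p = 0.354).

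Among the 7 sensors and regulators of RNA, 5 differences were negative and 2 positive, with a median of -0.08. Eif2ak2, the kinase PKR that halts translation when it meets double-stranded RNA, measured 29.9, 31.0, 25.1 and 24.4 CPM in C57BL/6J against 14.4, 13.4, 19.8 and 17.6 CPM in NOD. All NOD libraries were lower, but the samples of NOD also differed from each other, and the log2 difference of -0.74 (SE 0.24) did not pass (edgeR adjusted p = 0.166). Ifih1, the cytosolic RNA sensor MDA5 and a gene known for coding variants linked to type 1 diabetes in humans, measured 13.2, 9.86, 10.4 and 10.8 CPM in C57BL/6J against 5.55, 8.85, 7.44 and 6.39 CPM in NOD. Its libraries did not overlap, and the log2 difference of -0.64 (SE 0.28) did not pass (edgeR adjusted p = 0.362). Adar, the enzyme that edits adenosine in double-stranded RNA, measured 102, 91.3, 92.2 and 98.0 CPM in C57BL/6J against 95.1, 80.3, 97.7 and 90.6 CPM in NOD, with overlapping strains and a difference of -0.06 (SE 0.16). Ddx58, the sensor RIG-I (0.07), Zbp1, a sensor of Z-form nucleic acid (-0.08), Dhx58 (-0.23) and Ddx60 (0.43) overlapped between the strains.

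The 2-5A synthetase family, enzymes that activate RNase L and their catalytically inactive relatives, was the lowest of the groups, with a summed level of 7.83 to 11.1 CPM in C57BL/6J libraries and 4.93 to 7.56 CPM in NOD libraries. Oasl1, an inactive relative that restrains translation of Irf7, measured 2.16, 1.53, 1.95 and 2.97 CPM in C57BL/6J against 0.810, 0.902, 1.06 and 0.945 CPM in NOD. Every NOD library was below every C57BL/6J library, at 15 to 32 reads per library, and the log2 difference of -1.16 (SE 0.44) did not pass (edgeR adjusted p = 0.273). Its neighbour Oasl2, 11006 bases away, had a difference in the other direction, 0.22 (SE 0.44). Oas3 measured -0.53, Oas1a -0.43 and Oas2 -0.02, all with overlapping strains and intervals that reach beyond 1 on the log2 scale.

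Of the IFIT family, which binds foreign RNA ends, Ifit2 was by far the highest. It measured 60.8, 54.2, 46.3 and 48.1 CPM in C57BL/6J against 40.0, 34.4, 46.7 and 54.1 CPM in NOD, with overlapping strains and a difference of -0.24 (SE 0.21, edgeR adjusted p = 0.749). Ifit1 (0.36) and Ifit3 (0.49) lay at 4.40 ± 1.23 and 1.04 ± 0.0930 CPM (SD, n = 2) in C57BL/6J. The 3 genes lie close together on chromosome 19, and per length in C57BL/6J Ifit1 was at 1.66, Ifit2 at 13.2 and Ifit3 at 0.595 CPM per kb.

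In the system of Isg15, the ubiquitin-like protein that is attached to newly made proteins, Isg15 itself measured 2.58 ± 0.785 CPM in C57BL/6J against 3.13 ± 0.882 CPM in NOD (SD, n = 2 each), a difference of 0.28 (SE 0.42). Usp18, the protease that removes Isg15 and also dampens receptor signalling, measured 5.44, 6.30, 6.99 and 5.93 CPM in C57BL/6J against 4.49, 4.55, 4.43 and 3.21 CPM in NOD. The strains did not overlap, and the difference of -0.55 (SE 0.33) did not pass (edgeR adjusted p = 0.589). Dtx3l, a ubiquitin ligase that works with Parp9, measured 194, 158, 159 and 163 CPM in C57BL/6J against 135, 124, 141 and 155 CPM in NOD. Again every NOD library was lower, and the difference of -0.27 (SE 0.16) did not pass (edgeR adjusted p = 0.589). Herc6, the mouse ligase for Isg15 (-0.17), and Rnf213, a giant ubiquitin ligase (-0.01), overlapped.

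The PARP family members, which modify proteins with ADP-ribose, had the closest values. Parp9, Parp12 and Parp14 differed by 0.02, -0.09 and 0.10 on the log2 scale, and all 3 intervals stayed within 1. Parp9 and Dtx3l are transcribed in opposite directions from overlapping starts and share 458 exon bases, whose reads cannot be assigned without the strand setting of the counting. Parp9 measured 39.7 ± 1.10 CPM in C57BL/6J against 40.3 ± 1.43 CPM in NOD (SD, n = 2 each).

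The interferon-inducible GTPases held the called gene and also the largest positive differences. Of 9 members, 6 differences were positive and 3 negative. Iigp1, an effector GTPase that loads onto vacuoles holding intracellular pathogens, measured 0.560, 0.305, 0.755 and 0.913 CPM in C57BL/6J against 1.46, 1.46, 2.12 and 2.00 CPM in NOD. Every NOD library was higher, from 30 reads in all of C57BL/6J and 187 in NOD, and the log2 difference of 1.49 (SE 0.51) did not pass (edgeR adjusted p = 0.211). Irgm1, a regulatory GTPase like Igtp, was at 18.1 ± 0.502 CPM in C57BL/6J against 16.0 ± 0.564 CPM in NOD (SD, n = 2 each), with an interval from -0.68 to 0.32.

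Mx2, an antiviral dynamin-like GTPase that the annotation lists as a polymorphic pseudogene, measured 0.961, 1.42, 1.83 and 2.17 CPM in C57BL/6J against 4.01, 5.67, 2.88 and 1.70 CPM in NOD. The strains overlapped, and the difference of 1.20 (SE 0.50) did not pass (edgeR adjusted p = 0.332). Its neighbour Mx1 was low, at 0.442 ± 0.0628 CPM in C57BL/6J against 0.661 ± 0.162 CPM in NOD (SD, n = 2 each). The guanylate-binding proteins Gbp2 (-0.15), Gbp3 (0.21), Gbp7 (0.52, SE 0.20, edgeR adjusted p = 0.290) and Gbp9 (0.23) did not pass. Gbp9 libraries did not overlap, at 40.3 to 44.4 CPM in C57BL/6J against 45.2 to 58.5 CPM in NOD. Because guanylate-binding protein genes are close copies of each other, reads that match several of them could have been left uncounted or assigned to the wrong copy. The same holds for the synthetase and IFIT genes, and the size of this effect was not tested.

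The membrane and metabolic effectors also had a group total that did not overlap, 145 to 165 CPM in C57BL/6J libraries and 180 to 211 CPM in NOD libraries. Most of it was Samd9l, a restriction factor for poxviruses and a suppressor of blood cell growth, which measured 84.4, 81.5, 86.1 and 88.9 CPM in C57BL/6J against 139, 139, 113 and 117 CPM in NOD. Every NOD library was higher, and the log2 difference of 0.59 (SE 0.17, 95% interval 0.21 to 0.98) did not pass (edgeR adjusted p = 0.117). It was the member nearest to a call among those that were not called.

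Cmpk2, a mitochondrial nucleotide kinase, had the most negative difference of all 49. It measured 3.12, 2.44, 3.71 and 2.28 CPM in C57BL/6J against 1.05, 0.945, 1.26 and 1.44 CPM in NOD, without overlap, and the difference of -1.35 (SE 0.42) did not pass (edgeR adjusted p = 0.154). Rsad2, viperin, starts 12752 bases away on the other strand of chromosome 12 and is known to be induced together with Cmpk2. Its difference was in the other direction, 0.39 (SE 0.47), with 1.78 ± 0.0117 CPM in C57BL/6J against 2.33 ± 1.07 CPM in NOD (SD, n = 2 each). Whether the 2 differences differ was not tested.

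Shisa5, a membrane protein linked to p53-dependent cell death, measured 59.6, 46.7, 45.5 and 40.9 CPM in C57BL/6J against 58.0, 47.6, 51.3 and 55.8 CPM in NOD, with overlap and a difference of 0.14 (SE 0.18). Bst2, tetherin, was at 8.27 ± 2.30 and 7.77 ± 1.03 CPM (SD, n = 2 each). Rtp4 (0.13) and Ifitm3 (0.65, from 12 reads in C57BL/6J and 42 in NOD) also overlapped.

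Among the nuclear, mitochondrial and other induced genes, Sp100, a component of nuclear bodies, measured 279, 274, 272 and 278 CPM in C57BL/6J against 277, 259, 240 and 247 CPM in NOD. The strains overlapped, and the log2 difference was -0.09 (SE 0.16, 95% interval -0.45 to 0.27). Helz2, a helicase and transcriptional coactivator, measured 127, 133, 162 and 164 CPM in C57BL/6J against 158, 141, 172 and 164 CPM in NOD, also with overlap, at 0.13 (SE 0.18). Ifi35 libraries did not overlap, at 6.88 to 8.69 CPM in C57BL/6J against 9.76 to 11.2 CPM in NOD, but the difference of 0.43 (SE 0.28) did not pass (edgeR adjusted p = 0.643). Ifi27 (-0.24), Xaf1 (0.18) and Ifi44 (-0.36) overlapped.

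**Figure D3:**
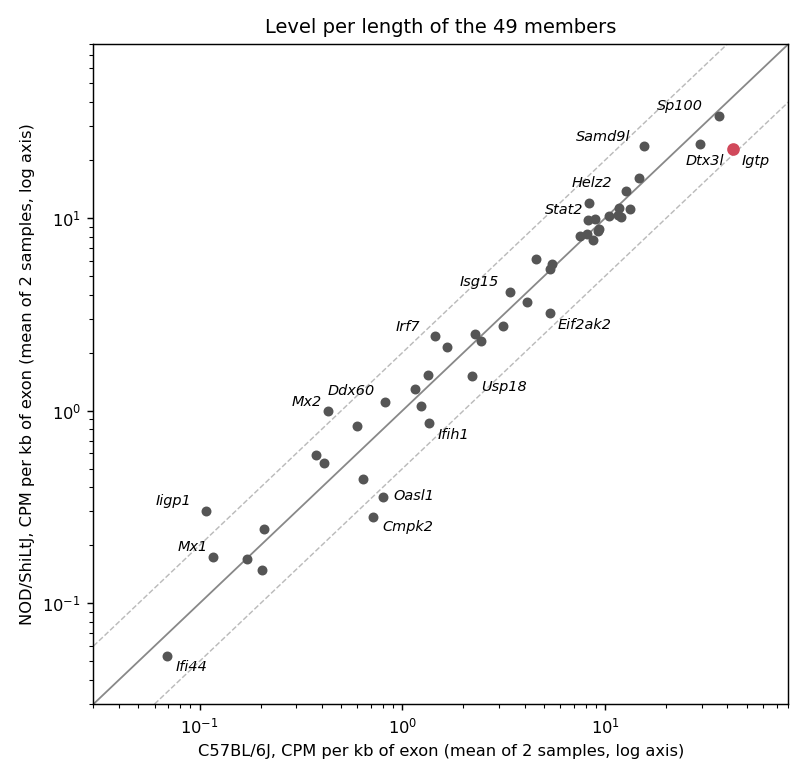
Level of each of the 49 members in CPM per kb of exon, mean of the 2 samples of a strain, with C57BL/6J on the x axis and NOD on the y axis (both log scales); the solid line marks equal levels, the dashed lines a 2-fold difference, and the red point Igtp. The members span from 0.0609 CPM per kb (Ifi44, mean of both strains) to 35.1 CPM per kb (Sp100). At the high end Sp100 (36.2 in C57BL/6J and 33.9 in NOD) lies close to the line of equal levels. Igtp (42.6 and 22.9) lies below that line and Samd9l (15.6 and 23.5) above it, both inside the dashed lines.

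The basal levels themselves covered a wide range. Averaged over both strains and per length, 12 members were at 10 CPM per kb or more, 23 from 1 to under 10 and 14 under 1. The highest were Sp100 at 35.1, Igtp at 32.7, Dtx3l at 26.8, Samd9l at 19.5, Shisa5 at 15.4, Helz2 at 13.2, Ifit2 at 12.2 and Adar at 11.5 CPM per kb. Genes often used to read an acute interferon response were low: Isg15 was at 3.78, Ifit1 at 1.90, Ifit3 at 0.716, Rsad2 at 0.473, Oas1a at 0.176 and Mx1 at 0.146 CPM per kb. In C57BL/6J alone Igtp (42.6 CPM per kb) was above Sp100 (36.2), Dtx3l (29.3) and Samd9l (15.6), and in NOD (22.9 CPM per kb) it was below all 3 (33.9, 24.3 and 23.5).

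Differences between the 2 samples of a strain were as large as many differences between strains. On the scale of log2(CPM + 0.5), the strains differed by 0.5 or more for 5 members with higher and 6 with lower NOD values. Sample 1 of NOD was higher than its sample 2 by at least this much for 6 members, Mx2 (0.92), Ifit1 (0.87), Rsad2 (0.79), Oas3 (0.56), Ifit3 (0.54) and Isg15 (0.50), and lower for none. Ifit1, Rsad2, Ifit3 and Isg15 are among the genes named above as often used to read an acute response. Of the others named there, Mx1 was at 0.29 and Oas1a at -0.27 between the NOD samples. Over all 49 members the median of NOD sample 1 over sample 2 was -0.08. Within C57BL/6J, sample 1 was higher by this much for 3 members, Bst2 (0.54), Isg15 (0.53) and Ifi27 (0.53), and lower for 3, Oas2 (-1.32), Mx2 (-0.57) and Ifit1 (-0.52). The median absolute difference between samples was 0.17 in C57BL/6J and 0.24 in NOD for the members, and 0.26 and 0.25 for all tested genes. That between the strains was 0.21 for the members on this scale. It compares means of 2 samples, which vary less than single samples, so it is not like for like with the differences within a strain.

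**Figure D4:**
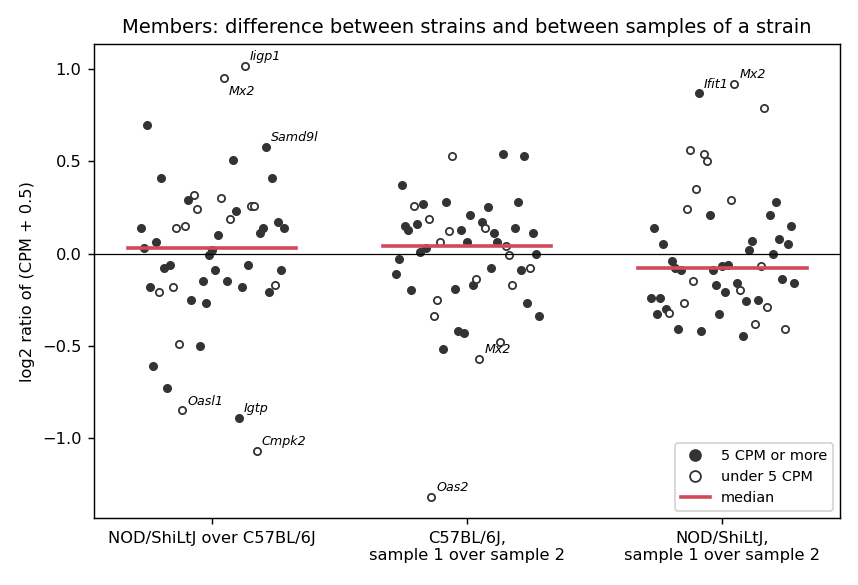
Log2 ratio of (CPM + 0.5) for each of the 49 members (points; filled at 5 CPM or more, open below), between the strain means, between the 2 samples of C57BL/6J and between the 2 samples of NOD, with red lines at the medians. Igtp lies at -0.89 between strains, and the spread between samples of 1 strain reaches as far as 0.92 (Mx2, NOD) and -1.32 (Oas2, C57BL/6J).

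Upstream of the members, interferon transcripts were close to absent. Reads of the 21 interferon ligand genes, among them Ifnb1 and the Ifna genes, summed to 0 to 0.441 CPM per C57BL/6J library and 0.0378 to 0.945 CPM per NOD library, and none passed the filter. Ifng had 2 reads in all of C57BL/6J and 0 in NOD, and Ifnb1 had 0 and 8. A count of 0 over a strain allows up to 3 reads.

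Receptors and signalling genes were well expressed. Of 24 genes, 23 were tested and 0 were called by edgeR, with 2 at an unadjusted p under 0.05, 0 by the DESeq2 Wald test and 1 (Socs3, lower) by limma-voom on the 8 libraries. The median log2 difference was 0.00, and 20 of the 23 intervals stayed within 1. Per length the highest were Ifngr1, a receptor chain for interferon gamma, at 169 CPM per kb in C57BL/6J and 146 in NOD, Jak1 at 79.0 and 72.7, and Ptpn6, a phosphatase that dampens signalling, at 74.9 and 70.9. Ifnar1 was at 139 ± 0.362 CPM in C57BL/6J against 146 ± 4.21 CPM in NOD (SD, n = 2 each), with an interval of the log2 difference from -0.28 to 0.42.

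Of 20 other sensors and adaptors, 18 were tested and 1 was called (5.56%, beside 3.68% of all tested genes), and the DESeq2 Wald test called 2, Samhd1 and Tlr7. Samhd1, a nucleotide hydrolase that restricts retroviruses, measured 4.32, 3.46, 5.54 and 7.08 CPM in C57BL/6J against 20.2, 18.1, 9.98 and 13.3 CPM in NOD. All NOD libraries were higher, and the gene rose by 1.63 on the log2 scale (SE 0.36, edgeR adjusted p = 0.0410). It was called in 7 of 15 settings. The call was lost without C57BL/6J sample 1 (1.34, edgeR adjusted p = 0.318), without C57BL/6J sample 2 (1.97, edgeR adjusted p = 0.0631), without NOD sample 1 (1.21, edgeR adjusted p = 0.106), after thinning to equal depth (1.56, edgeR adjusted p = 0.0553), with a filter of 1 CPM in 2 samples (0.0529), with the B number as a replicate block (0.0866), and with T number 1 (0.0786) or T number 2 (0.103) alone. The highest of this list per length were Trim25 at 22.9 CPM per kb in C57BL/6J and 31.3 in NOD (edgeR adjusted p = 0.238), Tbk1 at 19.0 and 18.3, and Traf6 at 12.1 and 13.3.

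Of 65 further ISGs, 53 were tested, and 4 were called (7.55% of those tested, beside 3.68% of all tested genes). Limma-voom on the 8 libraries called 6 of 48, adding Irgm2 and Sp110, and edgeR without the filter on low counts called 5 of 65, adding Gbp4. Ly6a, the surface antigen Sca-1, rose from 0.418 ± 0.154 to 2.64 ± 0.0640 CPM (SD, n = 2 each; log2 2.64, SE 0.50, edgeR adjusted p = 0.0201). Epsti1 fell from 230 ± 65.1 to 19.6 ± 2.87 CPM (log2 -3.55, SE 0.24, edgeR adjusted p = 7.3e-05), Ifi208 from 19.6 ± 2.10 to 6.89 ± 1.71 CPM (log2 -1.51, SE 0.28, edgeR adjusted p = 0.0189) and Parp11, a relative of the PARP members, from 66.9 ± 5.89 to 38.0 ± 0.167 CPM (log2 -0.82, SE 0.17, edgeR adjusted p = 0.0342). Epsti1 was called without any 1 of the samples. The other 3 were not called without C57BL/6J sample 1 (edgeR adjusted p of 0.181 for Ly6a, 0.0861 for Ifi208 and 0.145 for Parp11) or without C57BL/6J sample 2 (0.0619, 0.110 and 0.231). Over all 15 settings Ly6a was called in 12, Ifi208 in 13 and Parp11 in 11. By the mean of both strains, the highest per length were Ly6e at 178 CPM per kb in C57BL/6J and 120 in NOD, Lgals9 at 91.8 and 86.1, and Gbp8 at 46.4 and 65.2, and these did not pass. The median of the 53 differences was -0.03, close to that of the 49 members.

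**Figure D5:**
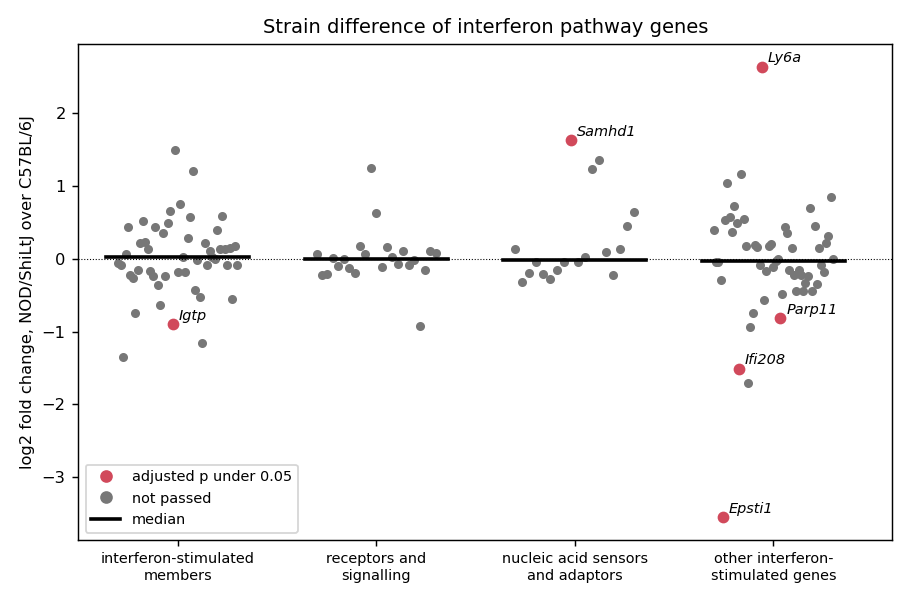
Log2 fold change of NOD over C57BL/6J (y axis) for the 49 members and for 3 other lists of interferon pathway genes (x axis), with a point per tested gene, red where the edgeR adjusted p was under 0.05, and a black line at each median. All 4 medians lie near 0, and the called genes are Igtp, Samhd1, Ly6a, Epsti1, Ifi208 and Parp11.

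In sorted bulk samples, fewer cells of a type and less RNA per cell cannot be told apart, so markers of other thymic cells are given beside these values. The 9 markers of macrophages and monocytes, cells with high ISG levels, summed to 9.82 to 16.9 CPM in C57BL/6J libraries and 14.0 to 28.5 CPM in NOD libraries. Of the 8 tested, 1 was called, Csf1r (log2 2.47, SE 0.48, edgeR adjusted p = 0.0233). Lyz2 (1.31, edgeR adjusted p = 0.109) was called by the DESeq2 Wald test and by edgeR without the filter. Adgre1 (0.45), Cd68 (0.29), C1qa (0.18), C1qc (0.11), C1qb (0.04) and Mertk (-0.18) were not called. Mertk and Fcgr1 were at or near 0 in every library. The 7 dendritic cell markers summed to 0.813 to 2.28 CPM and 1.62 to 3.22 CPM. Siglech, the defining marker of plasmacytoid dendritic cells, was at 0.508 to 1.28 CPM in C57BL/6J against 1.62 to 2.75 CPM in NOD, and 5 of the 7 markers of those cells had positive differences. Among these Spib (2.36, SE 0.60, edgeR adjusted p = 0.0717) and Klk1 (3 reads in all of C57BL/6J and 70 in NOD, edgeR adjusted p = 0.0670) did not pass but were called without the filter on low counts (edgeR adjusted p = 0.00908 and 0.00977), Spib also without NOD sample 1 (0.00566) and Klk1 without NOD sample 2 (0.00918). Ly6d was called lower (log2 -0.74, SE 0.17, edgeR adjusted p = 0.0488). That list summed to 1250 to 1280 CPM and 1110 to 1570 CPM, most of it Ccr9, which thymocytes express. Thymic epithelial markers summed to 4.28 to 7.52 CPM and 7.64 to 8.42 CPM, most of it Epcam, with Krt14, Aire and Foxn1 at or near 0. The 9 markers of mature single-positive thymocytes summed to 225 to 243 CPM and 216 to 295 CPM, and 0 of 9 were called (4 at an unadjusted p under 0.05 in edgeR). NK cell markers summed to 15.1 to 23.7 CPM in C57BL/6J against 21.3 to 27.1 CPM in NOD, and B cell markers to 337 to 411 CPM and 248 to 377 CPM, nearly all of it Ighm. Erythroid markers summed to 1.32 to 6.56 CPM and 1.54 to 13.6 CPM. The calls of Csf1r and Ly6d were both lost without C57BL/6J sample 1 (edgeR adjusted p = 0.0717 and 0.400) and without C57BL/6J sample 2 (0.146 and 0.114), and over all 15 settings Csf1r was called in 11 and Ly6d in 9. The part of these cells in the members with higher NOD values, among them Iigp1, Irf7 and Mx2 at a few CPM, was not tested. The summed double-positive markers were lower in NOD, mostly through Rag1, while 8 of the 13 had positive and 5 negative differences. Their part in the difference of Igtp was not tested. The highest library sum lay in NOD for the macrophage, both dendritic cell, thymic epithelial, NK cell, erythroid and mature single-positive lists. It lay in C57BL/6J for the B cell and double-positive lists.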

How the data were processed

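RNA-seq was available for 8 libraries of sorted double-positive thymocytes, 4 per strain. The authors deposited raw counts, whole numbers of reads per Ensembl gene and library without normalization. Per the submitters' processing notes, STAR 2.5.0a, HTSeq 0.6.1 and the build GRCm38 were used; the release of the annotation, the strand option of the counting, and any filter or removal of duplicates are not given in the sources used here. GRCm38 is a C57BL/6J genome, and how NOD sequence differences affect the counts was not tested. Reads that the counting assigned to no annotated feature, 39.98% to 59.08% of a library, were left out. How many of them lie in introns is not given. Of the 53465 genes, 105 had no entry in GENCODE M21. No ages, animals or dates are given for the B and T numbers. Libraries sharing a strain and B number differed by more than sampling noise (chi-square per degree of freedom 2.8 to 58.4) and were summed, which gave totals of 23.81 and 24.23 M (C57BL/6J) and 47.24 and 55.65 M (NOD).

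Genes were filtered with filterByExpr, scaled by TMM and tested in edgeR 4.0.16 under R 4.3.3 by its quasi-likelihood test (robust, only a strain term, two-sided), with Benjamini-Hochberg adjustment over 17291 genes. Alternatives used DESeq2 1.42.0 and limma 3.58.1, other filters, a replicate block, thinning to equal depth, single T numbers and leaving out each sample. The test was checked on simulated data. The floor of 3 reads over a strain covers counting error only, since no molecular identifiers are recorded. Values in all 8 libraries are given for members that were called, for the 5 others with the largest log2 difference, for the 8 with the highest level per length, and for those with strains that did not overlap and an unadjusted p under 0.05; Usp18 was added after its values were seen. Of the other interferon lists, called genes and the 3 highest per length are named; genes beyond this rule, among them Ifnar1, Irgm2 and the neighbours of Igtp, were chosen with their values known. Members and lists were chosen with earlier results of these data known. Promoter sequences are from the RefSeq table for GRCm38.p6. One gene of the pathway is not reported here.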

Additional observations from a re-analysis of the deposited data

Results flagged for a closer look

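In 2 members a single C57BL/6J library stood apart from the other 3, with a gap to the nearest value that, as a share of the whole range, exceeded Dixon's 95% critical value. Igtp measured 97.3 CPM in the first library of C57BL/6J sample 1, beside 82.1 to 83.1 CPM in the other 3 libraries (gap over range 0.932). Dtx3l measured 194 CPM in the same library, beside 158 to 163 CPM (gap over range 0.85). The 15 members whose library values are given by rule were screened in both strains, 30 groups in all, of which chance marks about 1 in 20, and libraries of 1 sample are not independent. Both genes had lower NOD values, and without C57BL/6J sample 1, which includes this library, the log2 difference of Igtp was -0.84 (edgeR adjusted p = 0.169).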

How the results depend on the processing

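The median log2 difference of the members stayed between -0.02 and 0.11 over 14 alternatives, less than 1 SD between samples (0.12) from its value. The number of all tested genes called was 637. It was 1188 without a filter on low counts, 342 with T number 2 alone and 256 to 1389 when 1 sample was left out (C57BL/6J sample 1 omitted, 256; C57BL/6J sample 2, 359; NOD sample 1, 863; NOD sample 2, 1389). Members called higher numbered 0 to 2 with a sample left out (1, Gbp7, without NOD sample 1; 2, Mx2 and Samd9l, without NOD sample 2), and 1 (Samd9l) both without the filter and with limma-voom on the 8 libraries. Members called lower numbered 0 to 2 with a sample left out (0 without either C57BL/6J sample; 2, Eif2ak2 and Igtp, without NOD sample 2), 2 with limma-voom on the 8 libraries (Eif2ak2 and Igtp) and 0 with T number 2 alone. Why these counts moved was not tested. Igtp ranged from -1.0 to -0.79 and was called in 12 of 15 settings, the one reported included. Shisa5 and Helz2, never called, ranged with a sample left out from -0.00 to 0.28 and from -0.03 to 0.31; the values below 0 arose for Shisa5 in the absence of C57BL/6J sample 2 and for Helz2 in that of C57BL/6J sample 1. The B numbers are not stated to pair the strains, and their deviations were correlated at -0.123. With the B number as a replicate block 513 genes were called and Igtp was at -0.89 (edgeR adjusted p = 0.045). With the crossed numbers as a block, an alternative chosen after seeing the data, 768 genes were called, with 0 members higher and 1 lower. With 2 samples per strain, and C57BL/6J at lower depth, members under 5 CPM have wide intervals.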
